A study of Mus musculus with 12 samples.

Results

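Tgfbi (ENSMUSG00000035493), which encodes the secreted TGF-beta-induced protein, was examined together with 8 genes of TGF-beta signalling in mouse bone marrow PreMegEs, the progenitors that give rise to megakaryocytes and erythroid cells. The 9 genes were Tgfbi, the ligand Tgfb1, the receptors Tgfbr1, Tgfbr2 and Tgfbr3, and the intracellular mediators Smad2, Smad3, Smad4 and Smad7, out of 41128 genes counted. They were chosen by gene name with earlier results of these data known. Tgfbi was singled out because it had the largest rise in P2+ over P2- PreMegEs. Its values in these 2 fractions are therefore a description and carry no test. RNA sequencing was carried out on 4 groups of 3 libraries each, listed as from C57BL/6 mice aged 12 to 16 weeks with cells of 3 mice pooled. The study gives the pooling and age in general and does not describe RNA sequencing of RUNX1C KO PreMegEs. WT PreMegEs came from wild type mice and were not split. P2- and P2+ PreMegEs were the hCD4- and hCD4+ fractions of Runx1 P1-GFP::P2-hCD4/+ mice, in which 1 Runx1 allele carries GFP at its distal P1 promoter and truncated human CD4 at its proximal P2 promoter. The reporter allele and the sort therefore cannot be told apart where a fraction is compared with WT PreMegEs. RUNX1C KO PreMegEs came from mice without RUNX1C, the isoform made from P1, and were also unsplit. Whether the RUNX1C KO libraries were made and sequenced together with the WT libraries is not given in the sources used here, so the genotype and a difference in processing cannot be told apart.

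TGF-beta is secreted as a latent dimer, held by latent TGF-beta binding proteins and released by integrins or thrombospondin. The active ligand brings the type II receptor Tgfbr2 and the type I receptor Tgfbr1 together, Tgfbr3 (betaglycan) presents ligand to them, and Tgfbr1 phosphorylates Smad2 and Smad3, which enter the nucleus with Smad4. Smad7 is an inhibitory Smad that is itself induced by the pathway and blocks the receptor. In bone marrow the pathway is known for restraining the division of blood stem and progenitor cells, and megakaryocytes and platelets are a rich store of Tgfb1. Tgfbi was named for its induction by TGF-beta, and its fasciclin domains bind integrins and matrix proteins.

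The promoter sequences of 3 members are shown because Tgfbi, Tgfb1 and Tgfbr2 had the widest gaps between the fractions among the members with a printable RefSeq window. Each is the 250 bases before the RefSeq start in GRCm38, 5′ to 3′ on the strand of the gene, and 3 motifs were searched on both strands: TGTGGT for RUNX, CAGAC for SMAD and AGATAA for GATA factors. Capitals mark the matches. The Tgfbi window lies at chr13:56609336-56609585 on the plus strand, the Tgfb1 window at chr7:25686752-25687001 on the plus strand, and the Tgfbr2 window at chr9:116175364-116175613 on the minus strand.
Tgfbi: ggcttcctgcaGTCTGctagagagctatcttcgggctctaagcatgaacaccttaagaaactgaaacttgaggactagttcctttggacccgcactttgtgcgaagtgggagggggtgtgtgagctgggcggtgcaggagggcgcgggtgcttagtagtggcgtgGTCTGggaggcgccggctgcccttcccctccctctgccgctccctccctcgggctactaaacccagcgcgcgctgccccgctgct
Tgfb1: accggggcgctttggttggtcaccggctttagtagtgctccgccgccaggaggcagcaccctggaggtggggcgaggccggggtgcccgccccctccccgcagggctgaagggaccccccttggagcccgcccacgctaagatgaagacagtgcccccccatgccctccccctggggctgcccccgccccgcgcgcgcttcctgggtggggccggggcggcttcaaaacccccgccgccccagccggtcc
Tgfbr2: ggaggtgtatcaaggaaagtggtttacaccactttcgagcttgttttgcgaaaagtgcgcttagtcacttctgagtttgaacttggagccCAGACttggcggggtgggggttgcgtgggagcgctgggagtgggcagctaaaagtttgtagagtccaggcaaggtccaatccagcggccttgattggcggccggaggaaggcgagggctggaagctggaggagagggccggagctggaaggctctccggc
The Tgfbi window held 2 SMAD matches, both as GTCTG on the strand shown, beginning 239 and 85 bases before the start. The Tgfbr2 window held 1 SMAD match, 160 bases before the start, and the Tgfb1 window held no match to any of the 3 motifs. Over 32851 RefSeq windows of this length, 42.2% held the SMAD letters, 14% the RUNX letters and 9.99% the GATA letters. No match means only that these letters are not in this window.

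The libraries held between 10726098 and 14445026 counts (median 12284879). A count of 3, the limit that a count of 0 allows, stands for 0.207 to 0.288 CPM (read counts scaled to library size by TMM), and this limit covers counting error only. Replicate 2 of both fractions stood apart: 18 immediate-early genes, which respond within minutes to stimulation, summed to 12989 CPM in P2- and 9558 CPM in P2+ replicate 2, against 181 to 1278 CPM in the other 10 libraries. In comparisons of the fractions, calls of named genes and counts that changed when replicate 2 of both groups was left out are given with both values. Runx1 itself, counted over the transcripts of both promoters, was 357 to 387 CPM in WT, 202 to 217 in P2-, 613 to 659 in P2+ and 341 to 381 in RUNX1C KO PreMegEs. This level does not separate RUNX1C from the other isoforms, so it does not check the deletion. Summed megakaryocyte markers were 1186 to 1641 CPM in P2+, 323 to 391 in P2-, 756 to 847 in WT and 662 to 679 in RUNX1C KO PreMegEs, while summed erythroid markers were 1307 to 1512, 5872 to 6675, 3327 to 3832 and 5634 to 6330 CPM.

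Tgfbi, on chromosome 13 (56609523 to 56639562, plus strand, 17 merged exons over 3771 exonic bases), was close to the limit of detection in P2- PreMegEs and clearly detected in P2+ PreMegEs. Its level was 10.7, 11.5 and 14.2 CPM in P2+ replicates 1, 2 and 3, from 128, 167 and 186 counts. In P2- PreMegEs it was 0.557, 0.0960 and 0.706 CPM, from 7, 1 and 10 counts. The fractions did not overlap, and Tgfbi passed the filter of that comparison through the P2+ libraries alone. WT PreMegEs lay between them at 2.22, 1.86 and 2.04 CPM, and RUNX1C KO PreMegEs at 2.71, 4.36 and 2.46 CPM. The order of the 4 means was therefore P2- (0.453 ± 0.318, SD, n = 3), WT (2.04 ± 0.18), RUNX1C KO (3.18 ± 1.04) and P2+ (12.1 ± 1.81), and no neighbours in this order overlapped, although the gap between WT and RUNX1C KO was little wider than the SD of the RUNX1C KO libraries. The fitted log2 difference was 4.66 ± 0.41 (SE) between P2+ and P2-, 2.57 ± 0.23 between P2+ and WT and -2.08 ± 0.53 between P2- and WT. In P2- against WT PreMegEs Tgfbi passed the filter through the WT libraries alone. Among 1961 genes with at least 10 CPM in P2+ PreMegEs, an adjusted p under 0.05 and no overlap, Tgfbi ranked 1, followed by Pde10a at 4.52 ± 0.37. Per length Tgfbi stayed the lowest of the 9 members in every library, at no more than 3.76 RPKM (CPM divided by the exonic length in kilobases).

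**Figure D1:**
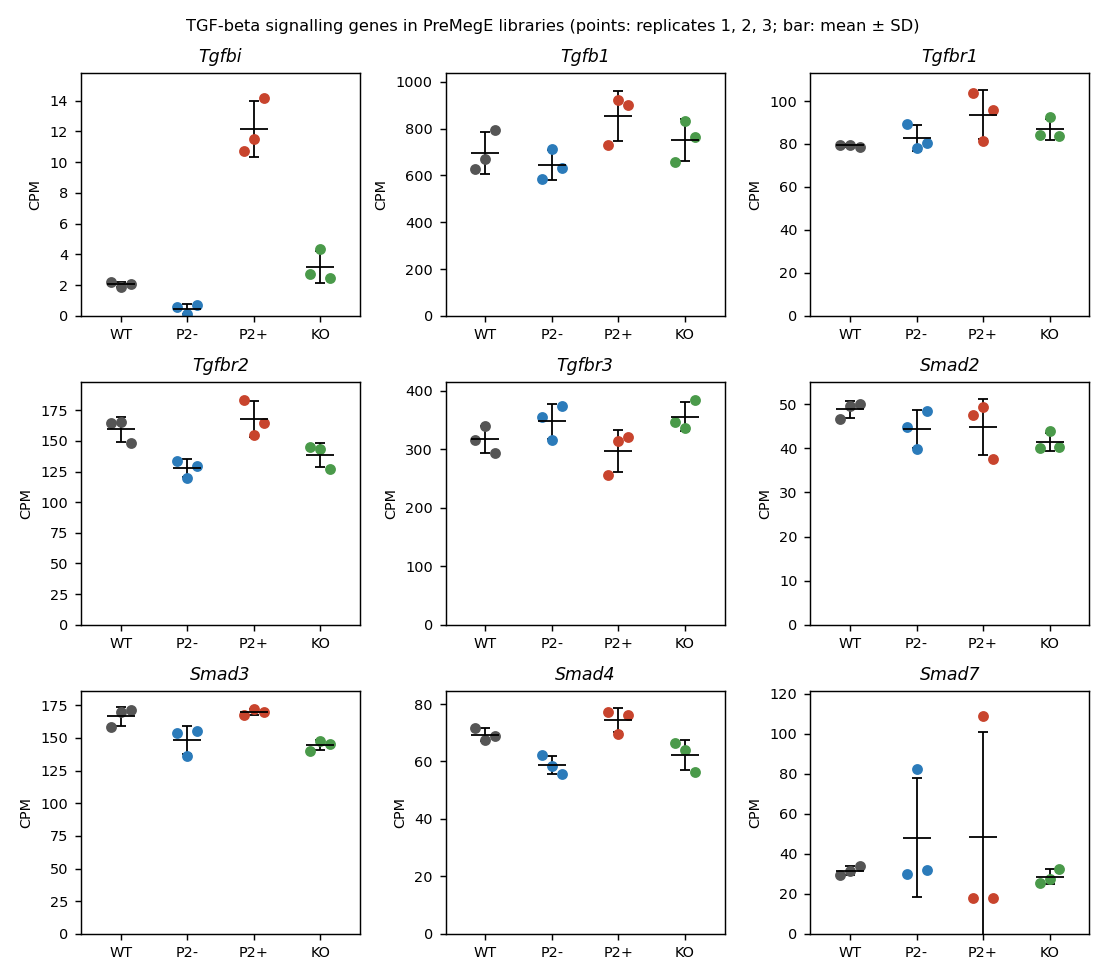
Level of each member in CPM (y axis, linear from 0, scales differ) in the 12 libraries by group (x axis). Points are replicates 1, 2 and 3 from left to right, and bars are the mean ± SD of 3 libraries, cut at 0 for Smad7 in P2+. Tgfbi separates P2+ (10.7 to 14.2 CPM) from every other library (at most 4.36 CPM), and Smad7 is high in replicate 2 of both fractions.

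The RUNX1C KO libraries did not enter the choice of Tgfbi, so Tgfbi could be tested there. All 3 RUNX1C KO libraries were above all 3 WT libraries, as for 15.7% of the genes tested, but the log2 difference of 0.63 ± 0.36 (edgeR, adjusted p = 0.282) was not called. Replicate 2 alone gave 4.36 CPM, and the other 2 RUNX1C KO libraries gave 2.71 and 2.46 CPM against a highest WT value of 2.22.

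Tgfbi is a well known product of monocytes, so monocyte markers were read beside it. The summed CPM of the 17 matched monocyte and macrophage markers was 229 to 320 in P2+, 55.8 to 92.6 in P2-, 137 to 239 in WT and 85.7 to 119 in RUNX1C KO PreMegEs. Between the fractions 11 markers were tested, and P2+ PreMegEs had 6 higher and 1 lower, or 8 higher without replicate 2 of both fractions, beside 20.1% of all genes called higher. Some of the 6, Csf1r among them, passed the filter through P2+ PreMegEs alone. Most of the sum was Lyz2 (lysozyme), at 175, 186 and 192 CPM in P2+ and 41.5, 53.7 and 33.3 CPM in P2- replicates 1, 2 and 3. The 6 markers not tested included defining ones that were low in all 12 libraries: Fcgr1 reached at most 0.759, Cd14 0.554, Adgre1 0.277 and Ctss 1.17 CPM. Csf1r, the receptor for the monocyte growth factor, was 6.53, 1.17 and 2.21 CPM in P2+ and 7.48, 1.27 and 0.728 CPM in WT replicates 1, 2 and 3. F13a1 was likewise 37.9, 6.83 and 10.6 CPM in P2+ and 35.8, 6.50 and 6.63 CPM in WT PreMegEs. Replicate 1 was the highest library of both groups for these 2 markers. For Tgfbi it was the lowest P2+ library (10.7 CPM) and the highest WT library (2.22 CPM). Lyz2 was also lowest in replicate 1 of P2+ (175 CPM). Its WT replicates 1, 2 and 3 gave 96.3, 86.9 and 106 CPM. The study sorted PreMegEs as Sca1- cKit+ cells after depletion with lineage antibodies, among them CD11B, GR1, CD3E and B220. The part of other cell types in the Tgfbi level was not tested. In bulk libraries fewer cells with a transcript and fewer transcripts per cell cannot be told apart.

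Over the 12 libraries and 9530 genes with a mean of at least 10 CPM, the genes whose log2 CPM most resembled that of Tgfbi were Lrmp (Pearson r = 0.975, Spearman correlation = 0.846), Dach1 (0.969, 0.853), Zfp319 (0.969, 0.825), Runx1 (0.962, 0.818), the ATP-gated channel P2rx1 (0.961, 0.797) and Basp1 (0.961, 0.902). These are descriptions over libraries that fall into 4 groups and share their scaling. Runx1 ran in the order P2-, RUNX1C KO, WT and P2+, with means of 211, 360, 369 and 631 CPM. Among the other members Tgfbr2 (r = 0.748) and Smad4 (0.736) were most like Tgfbi, and the closest pair of members was Tgfbr2 and Smad4 (0.922).

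Tgfb1 (ENSMUSG00000002603), the ligand, on chromosome 7 (25687002 to 25705077, plus strand), was the most abundant member per length, at 116 to 183 RPKM. It was 729, 924 and 903 CPM in P2+, 586, 715 and 630 CPM in P2-, 626, 668 and 796 CPM in WT and 657, 832 and 766 CPM in RUNX1C KO replicates 1, 2 and 3. The lowest P2+ library stood just above the highest P2- library, and P2+ exceeded P2- in each numbered pair, by 1.24, 1.29 and 1.43 times. All neighbouring groups in the order P2-, WT, RUNX1C KO and P2+ overlapped. Against WT PreMegEs the log2 difference was 0.30 ± 0.11 for P2+ (adjusted p = 0.0923), -0.11 ± 0.11 for P2- (0.521) and 0.10 ± 0.09 for RUNX1C KO (0.516). The P2+ difference was called without P2+ replicate 1 (0.40, adjusted p = 0.0278) or without WT replicate 3 (0.40, 0.0477), and by DESeq2 (0.29, 0.0321).

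Of the 3 receptors, Tgfbr3 was the most abundant per length (39.0 to 58.7 RPKM), followed by Tgfbr2 (14.6 to 22.4) and Tgfbr1 (11.9 to 15.9). Tgfbr2 (ENSMUSG00000032440), the type II receptor that binds ligand first, lies on chromosome 9 (116084293 to 116175360, minus strand). It was 134, 119 and 130 CPM in P2-, 183, 154 and 164 CPM in P2+, 164, 166 and 148 CPM in WT and 145, 144 and 127 CPM in RUNX1C KO replicates 1, 2 and 3. The 3 P2- libraries lay below every WT and every P2+ library, and 18.1% of all genes had every P2- library below every WT library. Tgfbr2 was called lower in P2- than in WT PreMegEs (-0.32 ± 0.08, adjusted p = 0.0214), but not without WT replicate 1 (-0.30, 0.0836) or WT replicate 2 (-0.29, 0.0888), nor without replicate 2 of both groups (-0.25, 0.113). In RUNX1C KO PreMegEs it was -0.21 ± 0.07 (adjusted p = 0.0605), which passed without WT replicate 3 (-0.26, 0.0185), and in P2+ against WT PreMegEs 0.08 ± 0.09 (0.612).

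Tgfbr1 (ENSMUSG00000007613), the signalling type I receptor, lies on chromosome 4 (47353222 to 47414931, plus strand). Between P2+ and P2- PreMegEs it differed by 0.19. It was called there only with the replicate number as a block (adjusted p = 0.0337) or without P2+ replicate 2 (0.29, 0.0418). It was 78.7 to 79.7 CPM in WT, 78.1 to 89.5 in P2-, 81.4 to 104 in P2+ and 83.7 to 92.6 in RUNX1C KO PreMegEs. P2+ PreMegEs differed from WT by 0.24 ± 0.09 (adjusted p = 0.1), or 0.33 (0.0136) without P2+ replicate 2 and 0.33 (0.0399) without replicate 2 of both groups. Tgfbr3 (ENSMUSG00000029287), on chromosome 5 (107106570 to 107289629, minus strand), ran the other way, with means of 297 CPM in P2+, 316 in WT, 348 in P2- and 356 in RUNX1C KO PreMegEs. Neighbouring groups overlapped, and the differences from WT were -0.09 ± 0.10 in P2+, 0.14 ± 0.09 in P2- and 0.16 ± 0.07 in RUNX1C KO PreMegEs (adjusted p = 0.616, 0.337 and 0.139). Its exons overlap the gene model Gm43422 on the same strand, so part of its reads may have been left uncounted or shared.

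Smad3 (ENSMUSG00000032402), a receptor-activated Smad on chromosome 9 (63646767 to 63757994, minus strand), was 158, 170 and 171 CPM in WT, 140, 148 and 145 CPM in RUNX1C KO, 154, 136 and 155 CPM in P2- and 168, 172 and 170 CPM in P2+ replicates 1, 2 and 3. All RUNX1C KO and all P2- libraries lay below all WT and P2+ libraries. Every RUNX1C KO library lay below every WT library for 16.1% of all genes. It was the only member called between RUNX1C KO and WT PreMegEs (-0.21 ± 0.06, adjusted p = 0.0322), a difference of 1.16 times. The call did not survive leaving out RUNX1C KO replicate 1 (-0.19, 0.131), 2 (-0.23, 0.0591) or 3 (-0.22, 0.0977), or WT replicate 2 (-0.19, 0.099) or 3 (-0.19, 0.0597). Smad2 (ENSMUSG00000024563), its close relative on chromosome 18 (76241580 to 76310963, plus strand), was less abundant per length, at 4.27 to 5.70 RPKM against 24.6 to 31.0 for Smad3. It was 46.7 to 50.0 CPM in WT and 40.0 to 43.9 CPM in RUNX1C KO PreMegEs, without overlap, and the difference of -0.24 ± 0.09 (adjusted p = 0.0927) was not called.

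Smad4 (ENSMUSG00000024515), the shared partner of the receptor-activated Smads on chromosome 18 (73639009 to 73703780, minus strand), resembled Tgfbr2. It was 55.7 to 62.1 CPM in P2-, 56.4 to 66.3 in RUNX1C KO, 67.3 to 71.7 in WT and 69.5 to 77.3 CPM in P2+ PreMegEs. Every P2- and RUNX1C KO library lay below every WT and P2+ library, where 18.1% of all genes had P2- and 16.1% had RUNX1C KO libraries all below WT libraries. However, neither P2- (-0.24 ± 0.08, adjusted p = 0.0695) nor RUNX1C KO PreMegEs (-0.16 ± 0.08, 0.218) passed the threshold against WT PreMegEs.

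Smad7 (ENSMUSG00000025880), the inhibitory Smad on chromosome 18 (75367529 to 75395935, plus strand), depended on the library more than on the group. It was 29.8, 82.2 and 32.1 CPM in P2- and 17.7, 109 and 18.1 CPM in P2+ replicates 1, 2 and 3, whereas WT libraries gave 29.5, 31.3 and 33.7 CPM and RUNX1C KO libraries 25.5, 27.4 and 32.6 CPM. Replicate 2 was high in both fractions, the same 2 libraries in which immediate-early genes were high, and the part of that response in the Smad7 level was not tested. The genes most like Smad7 over the 12 libraries were Spry2 (r = 0.967), Dnajb6 (0.961) and the immediate-early gene Egr1 (0.953). With all libraries, Smad7 differed from WT by 0.63 ± 0.57 in P2+ (adjusted p = 0.502) and 0.60 ± 0.32 in P2- PreMegEs (0.241). Without P2+ replicate 2 it was lower in P2+ than in WT PreMegEs (-0.82, adjusted p = 0.00107), and likewise without replicate 2 of both groups (-0.82, 0.00511). Without P2- replicate 2 the P2- difference was -0.03 (0.901). RUNX1C KO PreMegEs differed from WT by -0.16 ± 0.12 (0.436).

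**Figure D2:**
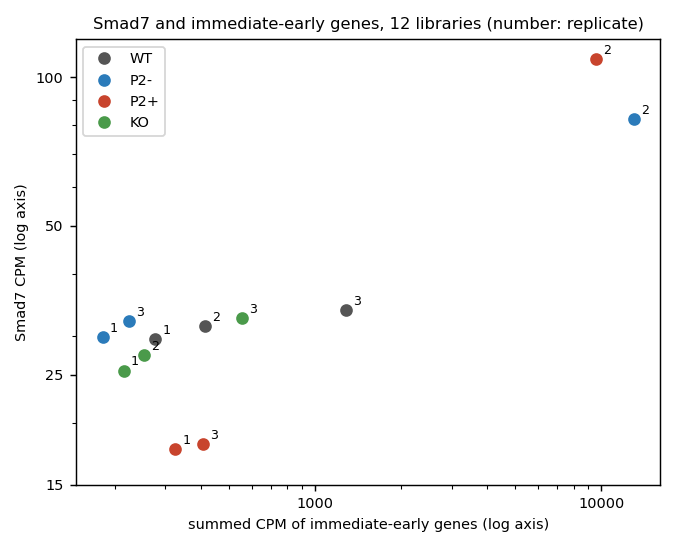
Smad7 CPM (y axis, log) against the summed CPM of 18 immediate-early genes (x axis, log) in the 12 libraries, coloured by group and numbered by replicate. P2- and P2+ replicate 2 sit alone at the upper right (82.2 and 109 CPM), and P2+ replicates 1 and 3 are the lowest for Smad7 (17.7 and 18.1 CPM).

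Between P2+ and P2- PreMegEs, 37.1% of the 12836 genes tested were called at an adjusted p under 0.05, and 4 of the 9 members were among them: Tgfbi, Tgfb1, Tgfbr2 and Smad4, all higher in P2+ (as 20.1% of all genes were), with log2 differences of 4.66, 0.42, 0.41 and 0.35. Tgfbi was chosen with this contrast and the other members with earlier results of these data known, so nothing is read from that count. Tgfb1 was not called by the edgeR exact test or without P2+ replicate 3, P2- replicate 1 or P2- replicate 3, and Smad4 was not called without P2- replicate 3. The same-numbered fractions varied together, and with the replicate number as a block 7 members were called (6 higher and 1 lower), beside 50.7% of all genes. The block added Smad3 (0.21, adjusted p = 0.0115) and Tgfbr1 (0.19, 0.0337) as higher and Tgfbr3 (-0.22, 0.0209) as lower. Without replicate 2 of both fractions 6 members were called, the same 4 higher and Tgfbr3 and Smad7 lower, beside 37.3% of all genes. Without P2- replicate 3 the count was 2 of 9, and without P2+ replicate 3 it was 2 of 8, since Tgfbi then did not pass the filter. The libraries of the 2 fractions did not overlap for 5 members, the above 4 and Smad3, as for 49.9% of all genes. In the fit without the block, the remaining differences were 0.21 ± 0.07 for Smad3, 0.19 ± 0.10 for Tgfbr1, -0.21 ± 0.11 for Tgfbr3, 0.03 ± 0.13 for Smad2 and 0.03 ± 0.69 for Smad7. Smad7 was -0.78 without replicate 2 of both fractions. Without P2+ replicate 2 alone Smad7 was -1.40. With all libraries, every member apart from Tgfbi differed by less than 2-fold in all 4 comparisons, and Smad7 passed 2-fold against P2- in that case and against WT PreMegEs without P2+ replicate 1 (1.03) or 3 (1.01).

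In the other comparisons few members were called. Tgfbi was chosen on the P2+ and P2- libraries and is left out of the counts of these fractions against WT PreMegEs. Of the other 8 members 0 were called by edgeR in P2+ PreMegEs (2 at an unadjusted p under 0.05), beside 16.5% of all genes, and DESeq2 called 1. The P2+ count was 2 without P2+ replicate 2, also without replicate 2 of both groups, and 1 without P2+ replicate 1 or WT replicate 3. In P2- PreMegEs 1 was called (Tgfbr2, lower), beside 16.5% called and 9.60% called lower. The count was 2 with upper-quartile scaling or 1 fit of all libraries, which also called Smad4 lower. That count was 0 by edgeR without WT replicate 1 (3 at an unadjusted p under 0.05), without WT replicate 2 (2), without replicate 2 of both groups (3) and with the replicate block (2), and 1 by DESeq2 on all libraries. In RUNX1C KO PreMegEs 1 of 9 members was called (Smad3, lower), beside 14.9% called and 8.76% called lower. That count was 0 by edgeR without RUNX1C KO replicate 1, 2 or 3 or without WT replicate 2 (5, 4, 1 and 3 at an unadjusted p under 0.05), and 1 by DESeq2 on all libraries. All 3 comparisons share the WT libraries.

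**Figure D3:**
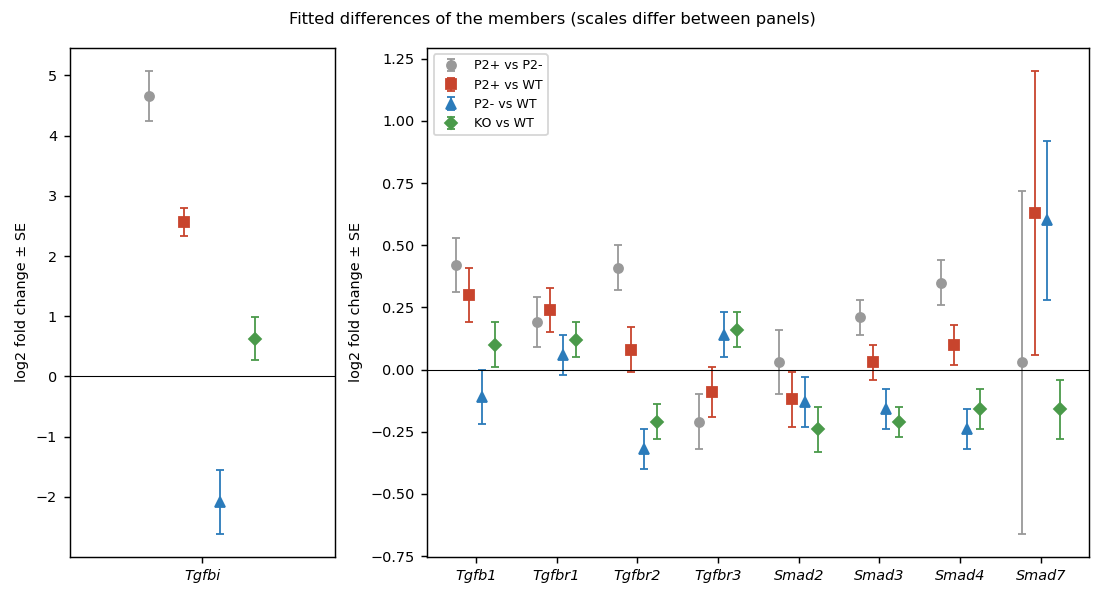
Fitted log2 fold change ± SE (y axis) of Tgfbi (left panel) and the other 8 members (right panel, narrower scale) in the 4 comparisons of 3 against 3 libraries. Tgfbi runs from -2.08 to 4.66, the other members stay within 0.63 of 0, and the bars of Smad7 are widest where replicate 2 of a fraction enters.

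Of 87 other genes of the pathway and its BMP and activin branch, 60 passed the filter in P2+ and P2- PreMegEs, and 17 were higher and 8 lower in P2+, or 41.7% called beside 37.1% of all genes. With the replicate block the count was 39 (22 higher, 17 lower, beside 50.7% of all genes), and without replicate 2 of both fractions 25 (13 higher, 12 lower, of 59, beside 37.3%). The median log2 difference of the 60 genes was 0.06, against -0.02 for all genes. Itgb6, among the 17 higher, passed the filter through the P2+ libraries alone. These lists were put together with earlier results of these data known.

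Of 7 tested genes for ligands and the activation of latent TGF-beta, P2+ PreMegEs had 4 higher and 1 lower than P2- PreMegEs, beside 20.1% of all genes called higher and 37.1% called in either direction. Without replicate 2 of both fractions the counts were 4 and 2. Both counts of higher genes include Itgb6, which is a description only. Itgb6, the beta chain of an integrin that releases latent TGF-beta, was 12.4, 8.21 and 11.0 CPM in P2+ and 0.876, 0.384 and 0.847 CPM in P2- replicates 1, 2 and 3 (a fitted difference of 3.87 ± 0.33). Like Tgfbi it passed the filter through the P2+ libraries alone, and in P2- against WT PreMegEs (-1.59 ± 0.45) through the WT libraries alone, so both differences are a description. Against WT PreMegEs it was higher in P2+ (2.27 ± 0.28, adjusted p = 0.000478). Between P2+ and P2- PreMegEs its partner chain Itgav differed by 0.70 ± 0.14 (0.00502) and the latent TGF-beta binding protein Ltbp3 by 0.90 ± 0.16 (0.00252). Thbs1, thrombospondin, another activator, was higher by 2.24 ± 0.62 (0.0203), but its call was lost without P2+ replicate 3 (1.56, 0.0815) or P2- replicate 3 (2.29, 0.0626). Ltbp1 was lower in P2+ by -1.01 ± 0.28 (0.0211), lost without P2+ replicate 1 (-0.90, 0.0749), P2+ replicate 2 (-0.79, 0.0566) or P2- replicate 3 (-0.89, 0.0789). The ligands Tgfb2 and Tgfb3 did not pass the filter.

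Fkbp1a (FKBP12), which binds the type I receptor and keeps it inactive, was 88.5, 67.7 and 69.1 CPM in P2+ and 13.9, 18.0 and 17.6 CPM in P2- replicates 1, 2 and 3 (2.20 ± 0.15, adjusted p = 1.41e-05). WT PreMegEs lay between, at 41.3, 40.6 and 32.1 CPM. Tgfbrap1, a receptor-associated protein, was lower in P2+ (-0.54 ± 0.07, 0.000588), though gene models on the opposite strand overlap it and the use of strand in counting is not stated. The same holds for Eng, Furin, Itgav, Thbs1, Ltbp3, Junb, Bhlhe40, Cdkn1c, Usp15, Csf1r and F13a1, and gene models on the same strand overlap Itgam, Usp15, Smurf2 and Smad5. Among 22 Smad modulators, 4 were higher and 3 lower (31.8% called, beside 37.1% of all genes). The counts were 1 higher and 4 lower without replicate 2 of both fractions, and 6 and 7 with the replicate block. Cited2, a coactivator partner, led them at 302, 271 and 339 CPM in P2+ and 96.2, 103 and 96.5 CPM in P2- replicates 1, 2 and 3 (1.64 ± 0.10, adjusted p = 6.05e-06), with WT PreMegEs at 193 to 212 CPM. The ubiquitin ligases Smurf1 (0.46 ± 0.13, 0.0247) and Smurf2 (0.33 ± 0.08, 0.0122) were higher, but not without replicate 2 of both fractions (0.39, 0.0708, and 0.26, 0.0552). Smurf1 was also lost without P2+ replicate 1 (0.48, 0.0591) or 3 (0.43, 0.0822) or P2- replicate 2 (0.37, 0.075) or 3 (0.44, 0.0766). Tgif1, a Smad corepressor, had the largest fall of these genes (-0.94 ± 0.24, 0.014), lost without P2+ replicate 1 (-0.85, 0.0593) or 3 (-0.76, 0.0504). The deubiquitinases Usp11 and Usp15 were lower, by -0.54 ± 0.09 (0.00198) and -0.36 ± 0.09 (0.0108).

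The BMP and activin branch uses related receptors and Smads. Of its 19 genes 8 were tested, and 5 were higher in P2+ than in P2- PreMegEs (4 without replicate 2 of both fractions), beside 20.1% of all genes. Their median log2 difference was 0.75 against -0.02 for all genes. Acvr1b, the type I activin receptor that, like Tgfbr1, activates Smad2 and Smad3, was 169, 133 and 140 CPM in P2+ and 52.3, 45.9 and 47.1 CPM in P2- replicates 1, 2 and 3 (1.62 ± 0.11, adjusted p = 1.05e-05). Smad1, which carries BMP signals, was 53.9, 42.0 and 51.9 CPM in P2+ and 19.0, 17.0 and 28.2 CPM in P2- (1.21 ± 0.19, 0.00132). The type I receptor Acvr1 was called at 1.33 ± 0.38 (0.0226), but not without P2+ replicate 2 (0.95, 0.0833) or P2- replicate 2 (1.11, 0.0555), nor without both (0.72, 0.157). The type II receptor Bmpr2 (0.87 ± 0.08, 7.78e-05) and Smad5 (0.64 ± 0.16, 0.0131) complete the 5, and both were named after their values were seen. Against WT PreMegEs, Acvr1b, Smad1 and Bmpr2 were higher in P2+ (1.27, 0.43 and 0.41) and lower in P2- (-0.33, -0.77 and -0.45), each at an adjusted p under 0.05. Of these the call of Acvr1b and Bmpr2 in P2+ held without each library in turn, and that of Smad1 was lost without any WT library or without P2+ replicate 1 or 3 (highest adjusted p = 0.0884). In P2- the calls were lost for Smad1 without WT replicate 2 (-0.76, 0.0514), for Bmpr2 without WT replicate 1 (-0.42, 0.0531) or 2 (-0.40, 0.0563), and for Acvr1b without P2- replicate 2 (-0.31, 0.0509) or 3 (-0.32, 0.0765) or WT replicate 1 (-0.30, 0.106) or 2 (-0.34, 0.0736). Without replicate 2 of both groups the P2- values were -0.34 (0.0608) for Bmpr2 and -0.31 (0.112) for Acvr1b.

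**Figure D4:**
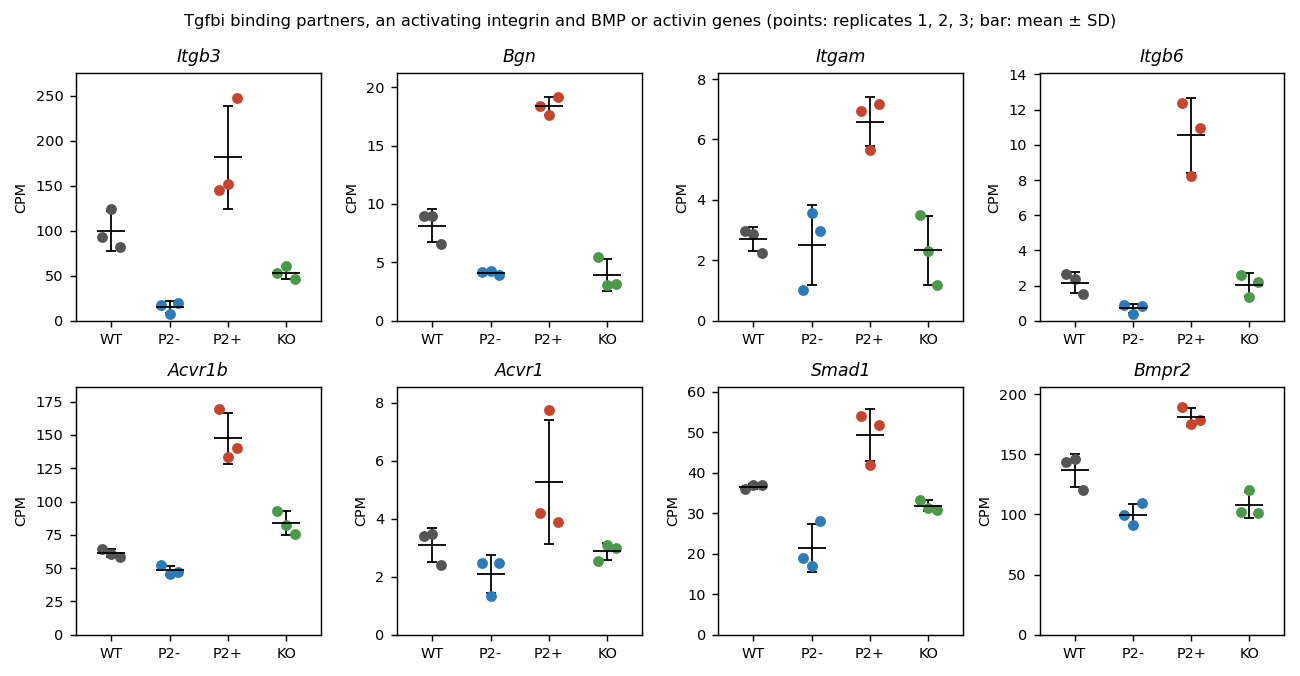
Levels in CPM (y axis, linear from 0, scales differ) of the Tgfbi partners Itgb3, Bgn and Itgam, the activating integrin Itgb6 and the BMP or activin genes Acvr1b, Acvr1, Smad1 and Bmpr2, by group (x axis). Points are replicates 1, 2 and 3, and bars are the mean ± SD of 3 libraries. The 8 genes were taken from those called higher in P2+ than in P2-. In all 8 panels the P2+ libraries lie above the P2- libraries, as for 24.7% of all genes tested.

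Genes commonly used as read-outs of TGF-beta were called in both directions. Of 11 tested target genes 2 were called (18.2%, beside 37.1% of all genes): Cdkn1c, a cell cycle inhibitor, was higher in P2+ than in P2- PreMegEs (1.21 ± 0.34, adjusted p = 0.0219) and Myc, which the pathway represses, was lower (-0.98 ± 0.12, 0.000301). Myc was 400, 399 and 396 CPM in P2+, 814, 642 and 919 CPM in P2-, 616 to 662 CPM in WT and 663 to 749 CPM in RUNX1C KO PreMegEs. The Cdkn1c call was lost without P2+ replicate 2 (0.93, 0.076) or P2- replicate 3 (1.02, 0.0789). Without replicate 2 of both fractions it was 0.88 (0.109), and the genes called of 10 tested were then Bhlhe40, Klf10 and Myc, 1 higher and 2 lower. With the replicate block 6 of 11 were called, 3 in each direction. Junb was 48.6, 895 and 58.8 CPM in P2+ and 56.6, 1519 and 57.0 CPM in P2- replicates 1, 2 and 3, and so rested on replicate 2 like Smad7. Klf10 (90.2, 247 and 97.3 CPM in P2+) and the Smad repressor Skil (67.5, 314 and 57.3 CPM) did the same. Myc was also lower in P2+ than in WT PreMegEs (-0.69), called under all 15 alternatives (highest adjusted p = 0.00109). Cdkn1c was higher there (1.07), with its call lost under 7 of them. Against WT PreMegEs, Bhlhe40 was called higher in P2+ (2.10 ± 0.62, 0.0428), but not without P2+ replicate 2 (0.70, 0.107), replicate 2 of both groups (0.84, 0.116) or without WT replicate 1 (2.12, 0.124), 2 (2.25, 0.105) or 3 (1.95, 0.14).

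The partners of the Tgfbi protein were listed with earlier results of these data known, so their counts are a description. Of 13 listed genes for its integrin and matrix partners and its fasciclin relatives, 5 passed the filter, and all 5 were called higher in P2+ PreMegEs, both against P2- (as 20.1% of all genes were) and against WT PreMegEs (9.45%). Against WT PreMegEs 4 were called without replicate 2 of both groups, when Itgb2 was not. Itgb3, the beta chain of the platelet fibrinogen receptor, was 145, 152 and 247 CPM in P2+, 17.4, 7.78 and 20.0 CPM in P2-, 93.0, 125 and 82.2 CPM in WT and 52.9, 60.8 and 46.1 CPM in RUNX1C KO replicates 1, 2 and 3. It differed by 3.59 ± 0.33 between the fractions (adjusted p = 6.46e-05). Bgn (biglycan), a matrix proteoglycan, was 18.4, 17.6 and 19.1 CPM in P2+ and 4.14, 4.23 and 3.95 CPM in P2- replicates 1, 2 and 3 (2.18 ± 0.16, 1.83e-05). Itgam was higher by 1.41 ± 0.40 (0.0226), lost without P2+ replicate 1 (1.37, 0.0629) or 3 (1.35, 0.0666), and Itgb2 and Itgb1, named after their values were seen, by 0.72 ± 0.15 and 0.36 ± 0.07. Against WT PreMegEs the call of Itgb3 in P2+ (0.87 ± 0.20, 0.0161) was lost without WT replicate 1 (0.81, 0.0714) or 3 (0.74, 0.0717). Itgb3 is also a megakaryocyte gene, and the summed megakaryocyte markers moved the same way, a part in the result that was not tested. Itgam and Itgb2 are leukocyte integrins. Of the markers tested between the fractions, 4 of 8 neutrophil, 5 of 7 lymphoid, 3 of 4 mast cell and basophil, and 3 of 5 stromal and endothelial markers were called higher in P2+ PreMegEs, and some of the called markers, Ms4a3, Fcer1a and Emcn among them, had every P2- library under 1 CPM and so passed the filter through P2+ alone. Without replicate 2 of both fractions the counts higher were 4 of 7, 5 of 6, 3 of 4 and 3 of 6, and the neutrophil markers Ngp and S100a9 were called lower, passing the filter there through P2- alone. The summed neutrophil markers were 122 to 255 CPM in P2+ and 29.9 to 111 in P2-, and the summed lymphoid markers 47.6 to 130 and 20.1 to 31.8 CPM. The lineage depletion before the sort is given above, and the part of these cell types was not tested either.

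In P2- against WT PreMegEs 15 of 59 pathway genes were called, 6 higher and 9 lower (25.4%, beside 16.5% of all genes). Itgb6, among the 9 lower, passed the filter through the WT libraries alone. The count was 4 without WT replicate 1, 3 without WT replicate 2 and 7 without WT replicate 3. Cited2 (-1.02 ± 0.08, adjusted p = 3.15e-05) and Fkbp1a (-1.20 ± 0.15, 0.00051) were lower in P2- without each library in turn. In P2+ against WT PreMegEs 11 of 59 were called, 9 higher and 2 lower (18.6%, beside 16.5%), and 7 without any 1 of the WT libraries. Fkbp1a (0.99 ± 0.13, 0.00067) and Cited2 (0.61 ± 0.09, 0.00151) were higher there and Usp11 lower (-0.66 ± 0.10, 0.00127).

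In RUNX1C KO against WT PreMegEs 11 of 58 pathway genes were called, 5 higher and 6 lower (19.0%, beside 14.9% of all genes), and between 5 and 9 when 1 library was left out, the lowest without RUNX1C KO replicate 3. Of all genes 3.41% were called at 2-fold or more by edgeR, and none of these 11 was among them. Furin, the protease that cleaves the TGF-beta precursor, was 270, 296 and 297 CPM in RUNX1C KO and 201, 203 and 217 CPM in WT replicates 1, 2 and 3 (0.47 ± 0.06, adjusted p = 5.93e-05). Ltbp1 was 14.5, 16.7 and 13.7 CPM against 7.69, 10.2 and 9.11 CPM (0.73 ± 0.17, 0.00757). Acvr1b was also higher (0.44 ± 0.09, 0.00171), and Cited2 was lower (-0.54 ± 0.09, 0.000249), and these 4 calls held without each of the 6 libraries in turn. Fkbp1a was lower by -0.52 ± 0.13 (0.0127), lost without RUNX1C KO replicate 3 (-0.39, 0.0912) or WT replicate 2 (-0.46, 0.0555). Bmpr2 was lower by -0.35 ± 0.09 (0.00992), lost without RUNX1C KO replicate 1 (-0.31, 0.0566) or 3 (-0.30, 0.0753) or WT replicate 2 (-0.30, 0.0529). The other 5 calls, Tgfbrap1, Tab3, Eng, Smurf1 and Usp11, were between -0.43 and 0.28 on the log2 scale, and each depended on single libraries. Usp11 was lost without RUNX1C KO replicate 1 (-0.26, 0.0531), and Smurf1 without RUNX1C KO replicate 2 (-0.38, 0.0816) or 3 (-0.40, 0.0852) or WT replicate 3 (-0.39, 0.0644). Tab3 was lost without RUNX1C KO replicate 2 (0.26, 0.0998) or 3 (0.26, 0.132) or WT replicate 1 (0.20, 0.139) or 3 (0.27, 0.0715). Tgfbrap1 was lost without any RUNX1C KO library or WT replicate 1 (0.17 to 0.28, highest adjusted p = 0.186), and Eng without any library except WT replicate 1 (-0.26 to -0.17, highest adjusted p = 0.154).

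Of the Tgfbi partners, Itgb3 was lower in RUNX1C KO than in WT PreMegEs (-0.91 ± 0.13, adjusted p = 7.51e-05) without overlap and without each library in turn, while Tgfbi itself was 0.63 ± 0.36 with the opposite sign. Bgn was lower by -1.06 ± 0.26 (0.0106), lost without RUNX1C KO replicate 2 (-0.91, 0.0556) or 3 (-0.93, 0.0663) or WT replicate 2 (-0.98, 0.0514). Summed erythroid markers were higher and summed monocyte and megakaryocyte markers lower in RUNX1C KO than in WT libraries, without overlap. The megakaryocyte markers went both ways, with 3 of 11 called higher and 5 lower, beside 6.18% and 8.76% of all genes. Of 6 tested neutrophil markers 5 were lower, with sums of 29.2 to 67.9 CPM in RUNX1C KO and 87.7 to 198 CPM in WT libraries. The part of these markers in the differences was not tested.

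**Figure D5:**
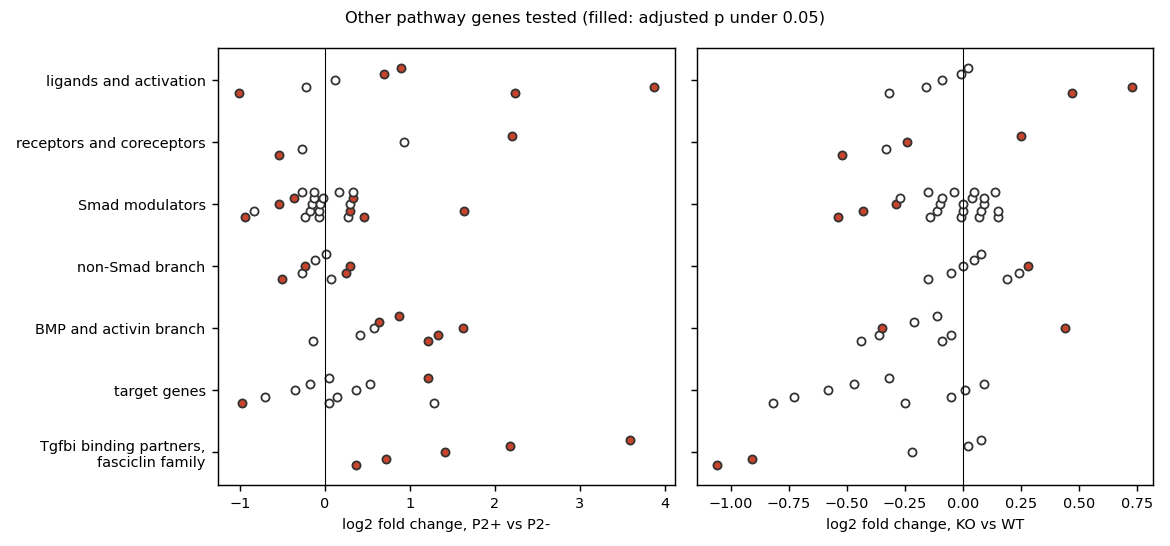
Log2 fold change (x axis, scales differ) of each other pathway gene and Tgfbi partner tested, grouped by role (y axis), in P2+ against P2- (left) and RUNX1C KO against WT PreMegEs (right). Filled points have an adjusted p under 0.05. BMP and activin genes and Tgfbi partners lie mostly to the right of 0 on the left panel, and the RUNX1C KO differences stay between -1.06 and 0.73.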

How the data were processed

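The deposited table holds whole-number read counts per gene and library, made by the authors from paired-end strand-specific poly(A) libraries aligned to GRCm38 with Bowtie2 and counted on Ensembl genes with featureCounts, without normalization. How strand and reads with several positions were treated in counting is not given in the sources used here. Samples were grouped by their labels. CPM were scaled by TMM over the 12 libraries, and RPKM used the exonic length in GENCODE M21 (GRCm38). Each comparison was fitted with edgeR 4.0.16 (R 4.3.3) by the quasi-likelihood F-test on the counts of its 6 libraries, keeping genes that reached 1 CPM in 3 libraries or more, and p-values were adjusted by Benjamini-Hochberg over all genes tested. A gene was called at an adjusted p under 0.05. The SE of a log2 difference is its size divided by the square root of F. Without replicate 2 of both groups the filter asked for 2 of 4 libraries.

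Members and lists were chosen with earlier results of these data known. Besides the members, the genes described were taken from up to 3 called genes in each direction of each list, those with the largest change and at least 5 CPM in the higher group. Not all of these are described against WT PreMegEs, markers of other cell types are given by counts and sums, and 1 list of signalling outside the Smads is not reported here on its own for the fractions. Same-numbered P2+ and P2- libraries deviated together from their group means (correlations 0.386, 0.572 and 0.405 over 13272 genes), so the numbers were taken to pair them. Nothing in the sources says that the numbers of the other groups mark a shared day or batch. Alternatives were RLE and upper-quartile scaling, DESeq2 1.42.0, the edgeR exact test, other filters, 1 fit of all libraries, the block, a 2-fold minimum and leaving out libraries. The fits were checked on simulated counts.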

Additional observations from a re-analysis of the deposited data

How the results depend on the processing

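Of 1536 values for 103 single-gene results under 12 to 15 alternatives each, 1314 kept their direction and side of the threshold, 187 lost the call, 20 gained it and 15 changed sign. Scaling moved the median of all genes by at most 0.03 (log2). The sign changes were small except for Smad7. Between P2+ and P2- PreMegEs, Smad2 became -0.01 without P2+ replicate 1, -0.04 without P2+ replicate 2, -0.05 without P2- replicate 2 and -0.12 without replicate 2 of both. Smad7 became -0.29 with the replicate block, -1.40 without P2+ replicate 2, -0.23 without P2- replicate 1, -0.20 without P2- replicate 3 and -0.78 without replicate 2 of both. Against WT PreMegEs in P2+, Tgfbr3 became 0.01 without P2+ replicate 1, Smad3 became 0 after rounding without WT replicate 1, and Smad7 became -0.82 both without P2+ replicate 2 and without replicate 2 of both groups. In P2-, Smad7 became -0.03 without P2- replicate 2 and without replicate 2 of both groups. On leaving out 1 library these results ranged from -0.05 to 0.15 and -1.40 to 0.66 (Smad2 and Smad7, P2+ against P2-), -0.15 to 0.01, 0 to 0.05 and -0.82 to 1.03 (Tgfbr3, Smad3 and Smad7, P2+ against WT) and -0.03 to 0.86 (Smad7, P2- against WT). The cause was not tested.

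For P2+ and P2- PreMegEs, the counts of all genes, members (Tgfbi included, as a description) and pathway genes called were 4762, 4 and 25. A 2-fold minimum left 1626, 1 and 9, the replicate block gave 6514, 7 and 39, and leaving out 1 library gave 3573 to 4328, 2 to 5 and 17 to 26. For P2+ and WT PreMegEs they were 2138, 1 and 11, with 497, 1 and 4 at 2-fold, and 1213 to 2447, 1 to 3 and 7 to 15 on leaving out 1 library. There 2 members were called by DESeq2, without a filter or with the replicate block, 3 without replicate 2 of both groups, and 21 pathway genes without a filter. For P2- and WT PreMegEs they were 2101, 2 and 15, with 597, 1 and 4 at 2-fold, and 1068 to 2189, 0 to 2 and 3 to 14 on leaving out 1 library. There the block gave 1 member and 7 pathway genes, and leaving out replicate 2 of both groups 0 and 8. For RUNX1C KO and WT PreMegEs they were 1910, 1 and 11, with 436, 0 and 0 at 2-fold, and 1194 to 1648, 0 to 1 and 5 to 9 on leaving out 1 library. There 2 members were called with upper-quartile scaling, without a filter or with the block, 1 fit of all libraries gave 1271, 0 and 7, and leaving out replicate 2 of both groups 1156, 0 and 6. By edgeR 4 members had an unadjusted p under 0.05 wherever leaving out replicate 2 of both groups or 1 fit of all libraries called 0. WT libraries shared only a number with the other groups (same-number correlations between -0.0854 and 0.159).

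Tgfbi rested on 1 to 10 counts in each P2- library, so its difference from P2- PreMegEs is coarse. Each group had 3 libraries, and 3 against 3 libraries cannot go below 0.10 in an exact two-sided permutation test.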
